A study of Homo sapiens with 6 samples.

Results

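The 8 genes described here encode both TRA2 splicing factors (TRA2A and TRA2B) and 6 kinases that phosphorylate SR proteins (CLK1, CLK2, CLK3, CLK4, SRPK1 and SRPK2). They were taken by symbol from a gene count table of 36601 rows, where each has 1 row, and all 8 were among the 17839 genes that passed the filter on low counts. Their splicing was read from 128 introns that lie inside the 8 gene spans, of 153462 introns in the LeafCutter table (a count of spliced reads for each intron, with introns that share a splice site grouped into clusters). The cells were U2OS, a human osteosarcoma line, carrying a doxycycline-induced TDP-43-mNLS-Clover. This is the RNA-binding protein TDP-43 with its nuclear localization signal mutated and a fluorescent tag attached. The aggregate group came from cultures given 50 nM fibril seeds of the TDP-43 low-complexity domain with lipofectamine-3000. The diffuse group came from mock cultures given storage buffer. An image-based sort at 48 h kept aggregate-bearing cells of the seeded cultures, and of the mock cultures those whose Clover signal was diffuse. There were 3 polyA libraries in each group, from separate transfections, and both groups express the same transgene. Fibril exposure, visible aggregation and sort gate coincide, so their parts in any difference cannot be told apart. A seeded culture without aggregates was not analysed here.

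TRA2A and TRA2B are SR-like proteins that bind purine-rich enhancers within exons, with AGAA as the core of their preferred site, and promote inclusion of those exons. Each TRA2 gene also holds a poison exon, an alternative exon whose inclusion brings an early stop codon and sends the transcript to nonsense-mediated decay. TRA2 proteins promote inclusion of these poison exons and so limit their own production. SRPK1 and SRPK2 phosphorylate the arginine-serine domains of SR proteins, mainly in the cytoplasm, which lets the proteins be imported. CLK1 to CLK4 are nuclear kinases that phosphorylate the same domains further and release SR proteins from nuclear speckles. The CLK genes share an alternative exon 4, whose skipping shifts the reading frame and removes the kinase domain from the product.

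The exons that the splicing results turn on are given first, read from GENCODE 29 transcripts on hg38, 5′ to 3′ on the transcribed strand. Capitals mark AGAA, searched as these 4 letters on both strands. For TRA2A the line holds the 79-base short form of the poison exon (exon 2 of TRA2A-203), at chr7:23522354-23522432, minus strand. For TRA2B it holds the first 81 bases of the 276-base poison exon (exon 2 of TRA2B-206), at chr3:185931772-185931852, minus strand, which end with the in-frame stop codon TGA at base 79. The CLK lines hold exon 4 of CLK1 at chr2:200860125-200860215 (minus), of CLK4 at chr5:178617344-178617434 (minus), of CLK2 at chr1:155268708-155268795 (minus) and of CLK3 at chr15:74622120-74622216 (plus).
TRA2A poison exon, short form: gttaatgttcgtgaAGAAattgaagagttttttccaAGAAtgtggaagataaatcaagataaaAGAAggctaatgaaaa
TRA2B poison exon, to the stop: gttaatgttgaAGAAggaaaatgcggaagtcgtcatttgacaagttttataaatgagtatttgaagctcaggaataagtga
CLK1 exon 4: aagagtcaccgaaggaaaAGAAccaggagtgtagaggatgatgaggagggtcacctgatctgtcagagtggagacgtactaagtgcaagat
CLK4 exon 4: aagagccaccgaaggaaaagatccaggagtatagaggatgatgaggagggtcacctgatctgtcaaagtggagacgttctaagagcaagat
CLK2 exon 4: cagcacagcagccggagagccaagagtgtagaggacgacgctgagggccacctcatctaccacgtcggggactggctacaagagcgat
CLK3 exon 4: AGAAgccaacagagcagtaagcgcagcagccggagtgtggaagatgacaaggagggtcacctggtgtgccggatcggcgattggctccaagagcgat

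The TRA2A stretch holds AGAA 3 times on the sense strand. Of 197401 same-length windows at the start of internal exons, 5.24% hold it at least that often. The TRA2B, CLK1 and CLK3 stretches hold it once each. At their lengths, 46.1%, 49.1% and 50.8% of such windows hold it at least once. No AGAA stands on the sense strand of the CLK4 and CLK2 stretches, and CLK4 holds it once on the opposite strand, as do 34.5% of windows of its length at least once. Exon 4 is 91 bases long in both CLK1 and CLK4, and 85 of the 91 bases are identical (93.4%). These matches describe the letters and are not mapped binding sites.

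Across the whole series, the gene count totals of the libraries ran from 40279084 to 46863013, and their spliced-read totals from 25341453 to 32020553. Between replicates the gene counts varied beyond sampling noise (chi-square over degrees of freedom, 2.59 to 6.34). TARDBP, the gene of TDP-43, stood at 2534, 2590 and 2617 CPM (gene counts scaled to a common library total, with TMM factors) in aggregate libraries, against 7368, 7267 and 7685 CPM in diffuse libraries. Its counts cannot separate the transgene from the cell's own copy. Mesenchymal and osteosarcoma markers were present throughout, with 6 markers summing to 5221 to 5674 CPM in aggregate libraries and 8043 to 8401 CPM in diffuse libraries. The 4 epithelial markers summed to 11.9 to 13.2 CPM and 18.2 to 18.9 CPM. Of the blood markers, CD68 averaged 14 ± 1.72 CPM in aggregate cells and 2.64 ± 0.312 CPM in diffuse cells (SD, n = 3 each), while PTPRC, CD3E and HBB were at or near 0. Of the 4 neuronal markers, 1 rose and 3 fell. RBFOX3 averaged 20.1 CPM in aggregate cells and 2.79 CPM in diffuse cells, whereas SNAP25 averaged 15.7 and 25.7 CPM, SYT1 9.15 and 29.3 CPM, and STMN2 0.206 and 2.56 CPM. The part of these markers in the differences below was not tested.

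Among the 8 genes, SRPK1 and CLK2 rose in aggregate cells, TRA2B, CLK1, CLK3, CLK4 and SRPK2 fell, and TRA2A did not pass the test. A pass is an adjusted p under 0.05 in edgeR's quasi-likelihood test, adjusted over all tested genes. The background for this count is high, since 75.4% of all tested genes passed (37.8% rose and 37.6% fell), so 7 of 8 is near the share over all genes. The median log2 fold change of the 8 genes was -0.29, against 0.0096 over all tested genes. The 3 aggregate and 3 diffuse libraries did not overlap for any of the 8 except TRA2A, and the same held for 76.2% of all tested genes. When the change had to exceed 1.2-fold (edgeR's glmTreat), TRA2B, CLK1, CLK4, SRPK1 and SRPK2 passed, while 51.6% of all genes did. In bulk RNA, fewer cells expressing a gene and less RNA per cell cannot be told apart.

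**Figure D1:**
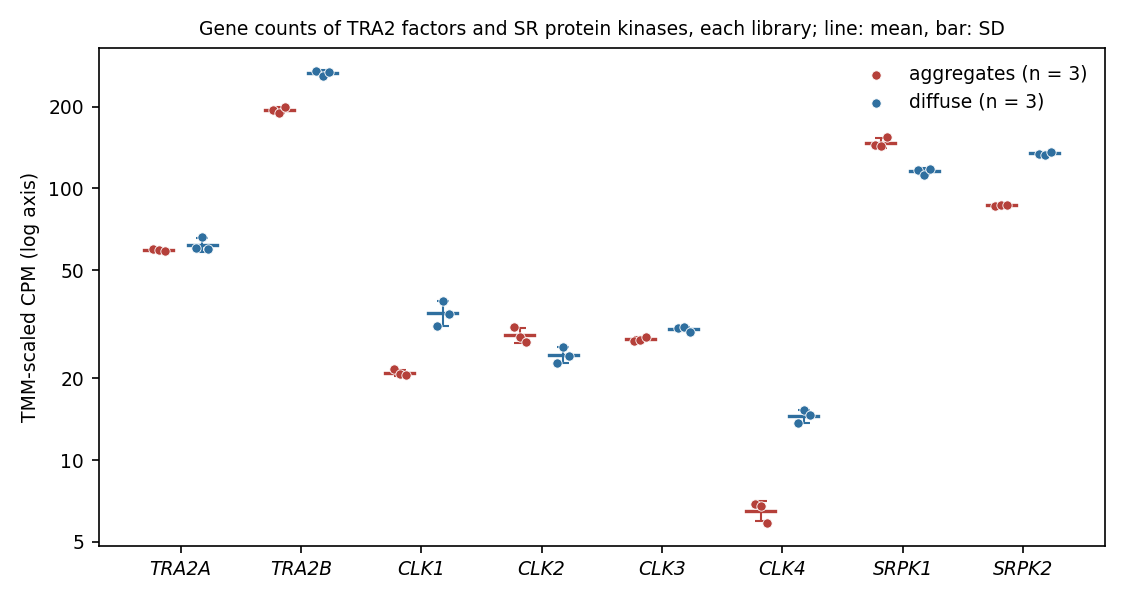
Gene counts of the 8 genes in each library as TMM-scaled CPM on a log axis, aggregate libraries to the left of diffuse libraries in each pair; the short line is the mean and the bar the SD (n = 3 each). The groups are apart for every gene except TRA2A, and the widest gap on the log axis is that of CLK4.

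TRA2B (chromosome 3, 185915906 to 185938136, minus strand) was the most abundant of the 8 per unit length. It had 194, 190 and 199 CPM in aggregate libraries, against 271, 260 and 267 CPM in diffuse libraries. All aggregate libraries lay below all diffuse libraries. The log2 fold change was -0.45 (SE 0.04, adjusted p = 2.82e-21), so that TRA2B fell by 27%. Its paralog TRA2A (chromosome 7, 23504780 to 23532041, minus strand) had 59.6, 59.2 and 58.8 CPM in aggregate libraries, against 60.1, 66.1 and 59.6 CPM in diffuse libraries. These groups overlap, and the log2 fold change was -0.07 (SE 0.04, adjusted p = 0.139). The within-library ratio of TRA2A to TRA2B counts was therefore higher in aggregate libraries, at 0.307, 0.312 and 0.296, against 0.222, 0.254 and 0.223 in diffuse libraries.

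CLK4 (chromosome 5, 178602664 to 178630615, minus strand) had the largest change of the 8, with the fewest counts (243 to 319 in aggregate libraries and 544 to 642 in diffuse libraries). It stood at 6.9, 6.78 and 5.86 CPM in aggregate libraries, against 13.6, 15.3 and 14.6 CPM in diffuse libraries. Every aggregate library lay below every diffuse library, with a log2 fold change of -1.15 (SE 0.07, adjusted p = 1.3e-27), so that CLK4 fell by 55%. CLK1 (chromosome 2, 200853009 to 200864744, minus strand) fell less, to 21.6, 20.8 and 20.5 CPM in aggregate libraries, against 31.2, 38.6 and 34.6 CPM in diffuse libraries. The diffuse libraries spread more widely than the aggregate ones, and the log2 fold change was -0.73 (SE 0.05, adjusted p = 1.1e-17).

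CLK2 and CLK3 moved little and in opposite directions. CLK2 (chromosome 1, 155262868 to 155278491, minus strand) had 30.9, 28.3 and 27.2 CPM in aggregate libraries, against 22.8, 26.1 and 24.2 CPM in diffuse libraries. The lowest aggregate library lay just above the highest diffuse library, and the log2 fold change was 0.24 (SE 0.05, adjusted p = 1.92e-05). CLK3 (chromosome 15, 74598500 to 74645414, plus strand) had 27.5, 27.8 and 28.4 CPM in aggregate libraries, against 30.6, 30.8 and 29.6 CPM in diffuse libraries. Its log2 fold change was -0.12 (SE 0.05, adjusted p = 0.0163). The CLK3 call did not hold with upper-quartile scaling (edgeR, adjusted p = 0.126), with DESeq2 (0.0548) or without aggregate library 1 (edgeR, 0.0668), and neither gene passed the test against a fold of 1.2 (adjusted p = 0.556 for CLK2 and 1 for CLK3).

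SRPK1 and SRPK2, the kinases that act mainly in the cytoplasm, changed in opposite directions. SRPK1 (chromosome 6, 35832966 to 35921342, minus strand) had 145, 143 and 154 CPM in aggregate libraries, against 117, 112 and 118 CPM in diffuse libraries. The log2 fold change was 0.35 (SE 0.04, adjusted p = 6.19e-15), or 27.5% higher. SRPK2 (chromosome 7, 105110704 to 105399308, minus strand) had 86, 87 and 86.8 CPM in aggregate libraries, against 134, 133 and 136 CPM in diffuse libraries. The log2 fold change was -0.64 (SE 0.04, adjusted p = 6.77e-30), so that SRPK2 fell by 35.6%. Neither gene's groups overlap. CLK2 overlaps HCN3, CLK3 overlaps EDC3, SRPK1 overlaps LHFPL5 and SRPK2 overlaps KMT2E on the opposite strand, and the strand setting of the gene counting is not given in the sources used here. Their gene counts are to that extent uncertain. Every intron within the 8 spans lay on the gene's own strand.

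**Figure D2:**
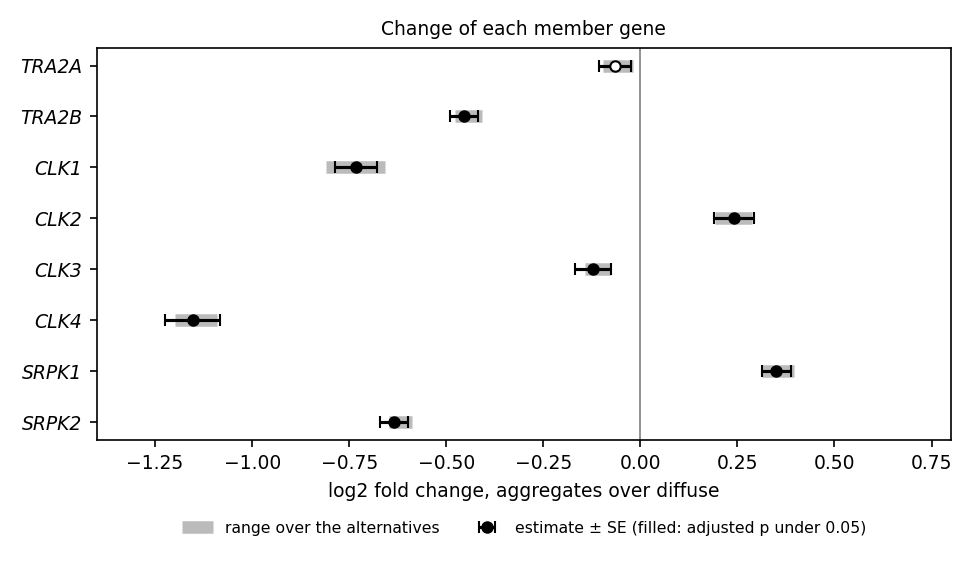
Log2 fold change (aggregates over diffuse) of the 8 genes with its SE; filled points passed the edgeR test, and grey bars span the values under 14 alternative settings. Each gene keeps its direction over these settings, and CLK4 at -1.15 and SRPK1 at 0.35 are the ends of the range.

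Divided by the length of the principal transcript (RPKM, the CPM per kilobase), the order of the levels differed between the groups. In aggregate cells TRA2B averaged 65.8 ± 1.48 RPKM, followed by TRA2A at 32.1 ± 0.229 and SRPK1 at 32.1 ± 1.34 RPKM, whose libraries overlap, and SRPK2 at 23.4 ± 0.146 RPKM. CLK3 at 15.1 ± 0.261 and CLK2 at 14.9 ± 0.962 RPKM also overlap, and CLK1 at 11.1 ± 0.295 and CLK4 at 2.54 ± 0.221 RPKM stood below them (SD, n = 3). In diffuse cells TRA2B averaged 90.1 ± 1.95 RPKM, then came SRPK2 at 36.3 ± 0.374, TRA2A at 33.6 ± 1.94 and SRPK1 at 25.2 ± 0.658 RPKM. CLK1 at 18.4 ± 1.96 and CLK3 at 16.4 ± 0.338 RPKM overlap there, above CLK2 at 12.6 ± 0.85 and CLK4 at 5.65 ± 0.324 RPKM (SD, n = 3). SRPK1 was thus above SRPK2 per unit length in all 3 aggregate libraries and below it in all 3 diffuse libraries.

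Ratios of paralog counts within a library need no scaling between libraries. The SRPK1 to SRPK2 ratio was 1.69, 1.64 and 1.78 in aggregate libraries, against 0.868, 0.842 and 0.868 in diffuse libraries, a log2 difference of 0.99. The log2 differences were 0.39 for TRA2A to TRA2B, 0.43 for CLK1 to CLK4 and 0.36 for CLK2 to CLK3. The groups did not overlap for any of the 4 pairs. No share was computed for ratios of other gene pairs, and 76.2% of single tested genes did not overlap either. Each gave p = 0.1 in an exact two-sided permutation test (0.1 after adjustment over the 4 pairs), the smallest p that 3 against 3 libraries allow, so none could pass 0.05. Computed from summed intron counts instead of gene counts, the log2 difference was 0.98 for CLK1 to CLK4 and 0.24 for CLK2 to CLK3, in the same direction.

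**Figure D3:**
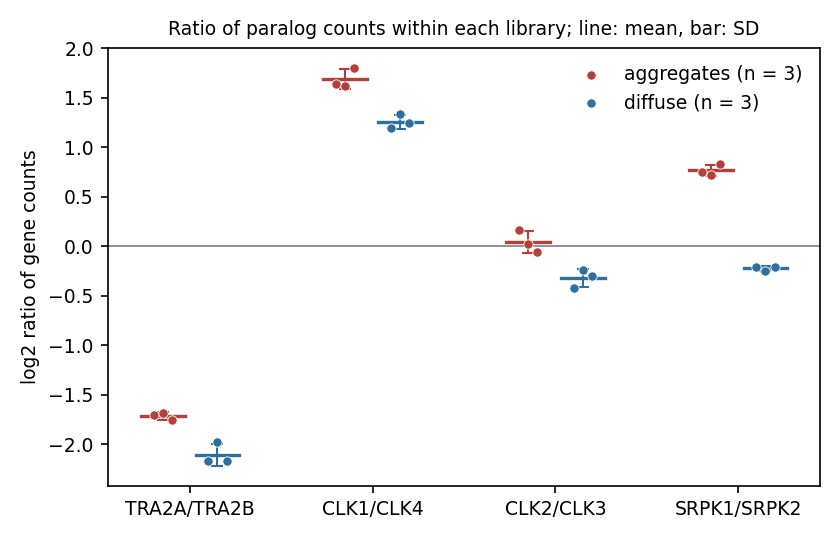
Log2 ratio of the gene counts of 4 paralog pairs within each library, aggregate libraries left of diffuse libraries, with mean and SD (n = 3 each). The SRPK1/SRPK2 ratio lies above 0 in the aggregate libraries and below 0 in the diffuse libraries, with a log2 difference of 0.99.

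The 128 introns of the 8 genes fall into 34 clusters, 3 to 7 per gene, all of which were tested, and 36 of the introns are not annotated in GENCODE 29. The shares of introns within a cluster changed in 5 clusters, 1 each in TRA2A, TRA2B, CLK1, SRPK1 and SRPK2 (edgeR diffSpliceDGE, Simes per cluster, adjusted p under 0.05). Over the series 5.02% of 35898 clusters changed. Of all genes with a tested cluster 14% had at least 1 changed cluster, and 19% of those with 3 to 7 tested clusters, against 5 of these 8 genes. Single introns passed 7 times among the 128, with a background of 2.05%. The 5 genes fell to 2 (TRA2A and TRA2B) when aggregate library 2 or 3 or diffuse library 1 or 3 was left out, and to 4 without either remaining library.

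The poison exons of both TRA2 genes were included less in aggregate cells. Inclusion was read from the spliced reads present, and the part of decay of the included forms was not tested. For TRA2B, the 276-base exon at chromosome 3, 185931577 to 185931852 had an inclusion of 26%, 27.8% and 24.6% in aggregate libraries, against 48%, 49.9% and 49.3% in diffuse libraries. Inclusion is the averaged count of the introns on either side of the exon, as a percentage of that average and the skipping count together. All aggregate libraries lay more than 20 percentage points below all diffuse libraries. These values are against the skipping intron from 185926735 to 185937824. Against a longer skipping intron (185925627 to 185937824), inclusion was 75.9%, 67.5% and 65.2% in aggregate libraries, against 80%, 79.4% and 84.1% in diffuse libraries. The groups did not overlap there either, but the gap was smaller. The cluster had an adjusted p of 1.65e-10 and 3014 to 4500 counts per library. The intron into the poison exon (185931853 to 185937824) took 7.51% ± 0.52 of the cluster in aggregate cells and 13.5% ± 0.64 in diffuse cells (SD, n = 3 each, intron adjusted p = 3.37e-10). The intron out of it (185926735 to 185931576) took 8.35% ± 0.47 and 15.1% ± 0.58 (adjusted p = 5.52e-11). The skipping intron (185926735 to 185937824) took 22.4% ± 1.2 in aggregate cells and 14.9% ± 0.43 in diffuse cells (adjusted p = 3.61e-07).

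For TRA2A, the poison exon (chromosome 7, 23522121 to 23522432) has 3 annotated splice donors, giving forms of 312, 301 and 79 bases. With the donors summed, inclusion was 34.8%, 37.8% and 34.8% in aggregate libraries, against 58.2%, 61.1% and 59.9% in diffuse libraries. This summed measure was added after the data were seen. The groups are separated by more than 20 percentage points, as in TRA2B against its shorter skipping intron. The cluster had an adjusted p of 2.61e-06 and 457 to 598 counts per library. The skipping intron (23521841 to 23531788) took 43.4% ± 2.4 of the cluster in aggregate cells and 23.2% ± 1 in diffuse cells (SD, n = 3 each, intron adjusted p = 9.72e-07). Inclusion by single donor, against the same skipping intron, was lower in aggregate cells for each form. It was 31.7% ± 1.34 and 54.2% ± 2.03 for the 312-base form, 27.8% ± 2.84 and 49.6% ± 1.42 for the 301-base form, and 24.4% ± 2.9 and 45.3% ± 2.83 for the 79-base form. Against the skipping intron from 23521841 to 23531180, which comes from an annotated 90-base exon, the groups overlapped for each form. Inclusion there was 92.1% ± 3.72 and 93.2% ± 10.6, 87% ± 4.04 and 90.4% ± 14.4, and 73.3% ± 2.98 and 80.2% ± 29.7, in the same order.

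**Figure D4:**
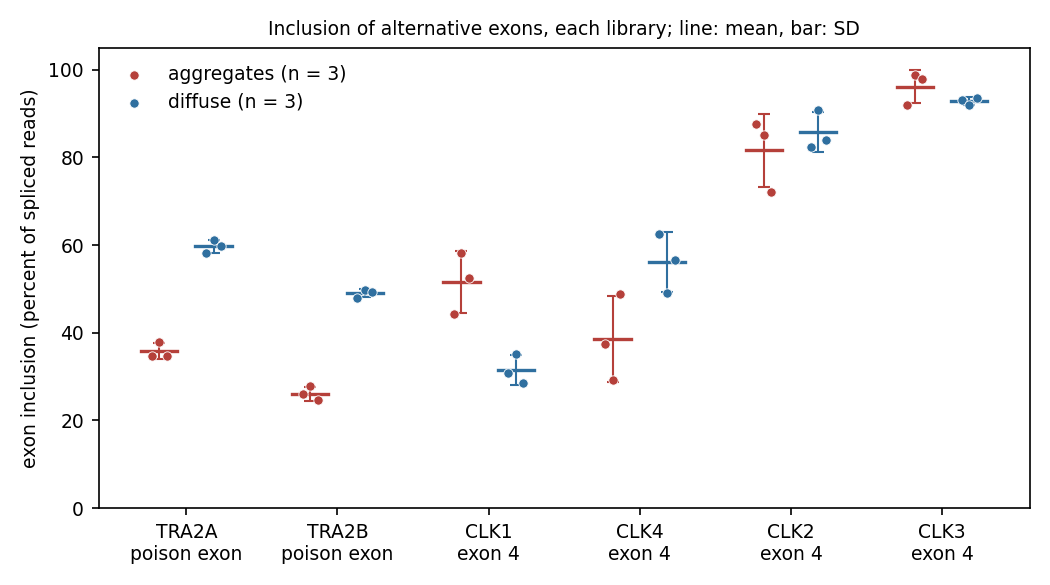
Inclusion of the TRA2A and TRA2B poison exons and of exon 4 of the 4 CLK genes, in percent of spliced reads, in each library, with mean and SD (n = 3 each; aggregates left). The poison exons stand at 26.1% and 35.8% in aggregate cells and at 49% and 59.7% in diffuse cells. Exon 4 stands at 51.6% in aggregate cells and 31.5% in diffuse cells in CLK1, and at 38.6% and 56.1% in CLK4, whose cluster did not pass.

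A share can move because either form moved, so the level of each intron was also tested over the libraries (edgeR on intron counts, given as RPM, spliced reads scaled in the same way over all introns). This test was added after the data were seen. It called 44 of the 128 introns (12 rose and 32 fell), with 29% of all introns as background. In TRA2B the intron into the poison exon had 8.31, 9.2 and 8.28 RPM in aggregate libraries, against 20.6, 20.5 and 20.5 in diffuse libraries. Both introns that flank the exon fell, with level log2 fold changes of -1.25 (SE 0.09) and -1.27 (SE 0.09). The skipping intron had 25.2, 25 and 26.8 RPM in aggregate libraries, against 23.5, 21.8 and 22.7 in diffuse libraries, and its level log2 fold change of 0.18 (SE 0.08, adjusted p = 0.067) did not pass. The introns of TRA2B outside this event that passed had level log2 fold changes of -0.26 to -0.30.

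In TRA2A the skipping intron rose, to 8.09, 7.01 and 7.43 RPM in aggregate libraries, against 5.05, 4.91 and 4.55 in diffuse libraries (level log2 fold change 0.63, SE 0.13, adjusted p = 1.2e-05). The intron into the poison exon fell (-0.67, SE 0.13), as did the introns from its 3 donors (-0.81, -0.91 and -1.53). A pair of downstream TRA2A introns, from 23505814 to 23506137 and from 23507536 to 23512893, rose by log2 fold changes of 0.26 (adjusted p = 0.0226) and 0.25 (adjusted p = 0.0116). Thus TRA2A gene counts, which did not pass the test, held forms that moved in opposite directions. Gene counts do not separate the forms.

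**Figure D5:**
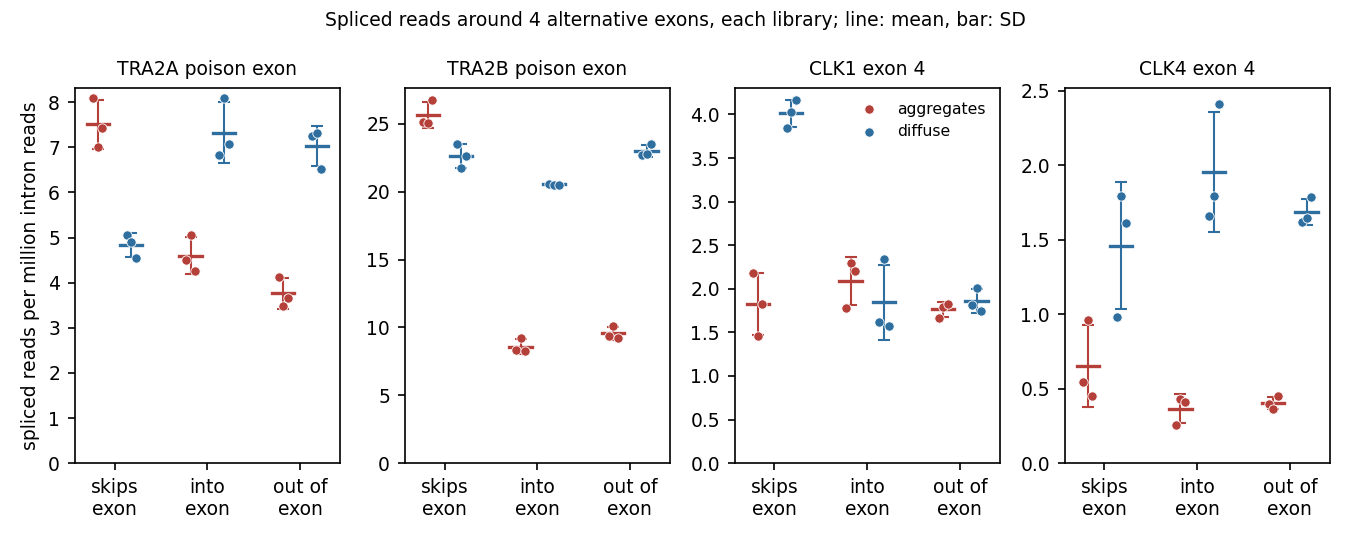
TMM-scaled RPM for the intron that skips each exon and for the introns into and out of it (for TRA2A the 3 donors summed), in each library, with mean and SD; every vertical axis starts at 0. The TRA2B skipping intron lies at 25 to 26.8 in aggregate libraries and 21.8 to 23.5 in diffuse libraries, while its flanking introns are far lower in aggregate libraries.

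Mean inclusion of exon 4 was higher in aggregate cells in CLK1, whose cluster passed, and lower in CLK4, whose cluster did not. In CLK1 the 91-base exon was included at 44.2%, 58.3% and 52.4% in aggregate libraries, against 30.8%, 35.1% and 28.5% in diffuse libraries. The aggregate libraries vary more among themselves but all lie above the diffuse ones. The skipping intron (200859747 to 200861237) took 32.1% ± 6.2 of the cluster in aggregate cells and 52.2% ± 3.8 in diffuse cells (SD, n = 3 each, intron adjusted p = 0.0248, cluster adjusted p = 0.0283). The cluster held 155 to 229 counts per library. Its call was lost without aggregate library 2 (adjusted p = 0.236), aggregate library 3 (0.114), diffuse library 1 (0.0968) or diffuse library 3 (0.166). By level, the skipping intron fell (2.18, 1.46 and 1.83 RPM in aggregate libraries, against 3.85, 4.03 and 4.16 in diffuse libraries, log2 fold change -1.14, SE 0.19, adjusted p = 1.76e-08). The introns on either side of exon 4 had level log2 fold changes of 0.18 (adjusted p = 0.625) and -0.07 (adjusted p = 0.868) and did not pass.

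In CLK4 exon 4 was included at 37.5%, 29.3% and 48.9% in aggregate libraries, against 62.6%, 49% and 56.6% in diffuse libraries. The highest aggregate library lay just under the lowest diffuse library. The cluster held 33 to 166 counts per library and did not pass (adjusted p = 0.517). All 3 of its introns fell in level, by log2 fold changes of -2.40 (SE 0.32) into the exon, -2.05 (SE 0.33) out of it and -1.15 (SE 0.31) for the skipping intron. Inclusion in CLK1 minus inclusion in CLK4 was 6.69, 29 and 3.49 percentage points in aggregate libraries, against -31.7, -13.9 and -28.1 points in diffuse libraries. The groups differed by 37.6 points (exact two-sided permutation test, p = 0.1, the smallest this design allows), a comparison added after the data were seen. A pair of further CLK4 exons, of 59 and 67 bases, had inclusions of 79.6% ± 18.3 and 53% ± 16.5 in aggregate cells and 65.5% ± 7.53 and 36.1% ± 4.39 in diffuse cells (SD, n = 3 each), in a cluster that did not pass (adjusted p = 0.721).

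Exon 4 of CLK2 and CLK3 was mostly included in both groups. In CLK2 the 88-base form was at 81.6% ± 8.31 in aggregate cells and 85.8% ± 4.49 in diffuse cells, and the 85-base form at 75.9% ± 11 and 80.6% ± 5.98 (SD, n = 3 each). In CLK3 the 97-base exon was at 96.1% ± 3.69 and 92.9% ± 0.921. The libraries of the groups overlap in both genes, and neither cluster passed (adjusted p = 1 for both). No CLK2 intron passed the level test, and 1 CLK3 intron did (74625969 to 74627351, log2 fold change -0.34, adjusted p = 0.0306).

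The changed clusters of SRPK1 and SRPK2 rest on minor introns. In SRPK1 an annotated intron (35891014 to 35895658) had 2, 0 and 0 spliced reads in aggregate libraries, against 10, 5 and 12 in diffuse libraries (intron adjusted p = 0.00296, cluster adjusted p = 0.012). It made up 0.0437% of its cluster in aggregate cells and 0.79% in diffuse cells, while the intron from the same acceptor to 35920467 made up 50% ± 0.18 and 45.3% ± 0.41. The cluster was not called with at least 30 counts per intron (adjusted p = 0.735), nor without aggregate library 2 (0.109) or 3 (0.0809) or diffuse library 1 (0.132) or 3 (0.205). In level, 9 SRPK1 introns rose, by log2 fold changes of 0.33 to 0.60, and this minor intron fell (adjusted p = 0.00204).

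In SRPK2 an intron that is not annotated (105145309 to 105146630) had 2, 4 and 2 reads in aggregate libraries, against 16, 19 and 14 in diffuse libraries. It took 1.14% ± 0.34 of its cluster in aggregate cells and 5.12% ± 1 in diffuse cells (intron adjusted p = 0.0452, cluster adjusted p = 0.0394). This call was lost in each of the 6 fits that left out 1 library (cluster adjusted p 0.0593 to 0.181). A 93-base SRPK2 exon at 105126248 to 105126340 was included at 97.1% ± 1.02 in aggregate cells and 91.6% ± 0.651 in diffuse cells, without overlap. Its cluster did not pass (adjusted p = 0.102), though it did in the F test per cluster (0.0227). By level, 9 SRPK2 introns fell, by log2 fold changes of -0.42 to -2.60, and none rose.

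The substrates of these kinases moved in both directions. Of 12 SR proteins, the splicing factors with arginine-serine domains, 3 rose, 8 fell and 1 (SRSF6) did not pass, with a median log2 fold change of -0.15, beside 37.8% of all tested genes that rose and 37.6% that fell. SRSF3 fell most, to 421, 416 and 461 CPM in aggregate libraries, against 1403, 1324 and 1427 CPM in diffuse libraries (log2 fold change -1.68, SE 0.04, adjusted p = 2.75e-55). Among those with at least 5 CPM, SRSF10 and SRSF7 followed at -0.35 and -0.34, while SRSF12, at 0.651 CPM in aggregate cells and 0.959 CPM in diffuse cells, had -0.57. The risers SRSF9, SRSF1 and SRSF8 had log2 fold changes of 0.32, 0.17 and 0.15. Of 16 SR-related and nuclear speckle proteins, 3 rose, 6 fell and 7 did not pass (median -0.07), so fewer were called than the 75.4% over all tested genes. RBM39, a U2AF-like splicing factor, fell to 199 ± 5.2 CPM in aggregate cells, against 374 ± 12.7 CPM in diffuse cells (SD, n = 3 each, log2 fold change -0.91, adjusted p = 3.67e-41). LUC7L3 (-0.65) and SON, a scaffold of nuclear speckles (-0.45), fell as well, and SNRNP70, RNPS1 and U2AF2 rose by 0.15, 0.10 and 0.08. U2AF1 averaged 0.869 and 0.989 CPM, and its counts are uncertain because a near-identical copy is annotated on hg38.

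Of 18 other kinases, phosphatases and carriers of SR proteins, 7 rose, 7 fell and 4 did not pass (median -0.03), near the 75.4% called over all tested genes. HSPA8, a constitutive heat shock protein 70, rose to 2328 ± 20.3 CPM in aggregate cells, against 1281 ± 57.9 CPM in diffuse cells (SD, n = 3 each, log2 fold change 0.86, adjusted p = 6.36e-36). DNAJC8, a J-domain protein that binds SRPK1, had a log2 fold change of 0.58, and DYRK3, a kinase that dissolves speckles, 0.44. PPP1CC, a catalytic subunit of protein phosphatase 1, fell by 0.68 on the log2 scale. TNPO3, the import receptor of phosphorylated SR proteins, fell by 0.64, and DYRK1A by 0.63.

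Of 7 genes known to hold TRA2-dependent exons, 2 rose, 3 fell and 2 did not pass, which is also near the 75.4% over all tested genes. CHEK1, a checkpoint kinase, fell to 44.4, 44.2 and 48.1 CPM in aggregate libraries, against 88.9, 89.1 and 93.2 CPM in diffuse libraries (log2 fold change -0.99, SE 0.04, adjusted p = 2.36e-40). HIPK3 and ATRX fell by 0.85 and 0.15 on the log2 scale. SMN1 (log2 fold change 0.98) and SMN2 (1.6 CPM in aggregate cells and 0.796 CPM in diffuse cells) rose, but they are near-identical copies whose reads cannot be assigned with certainty. An intron cluster changed in NASP (1 of 2 tested, adjusted p = 1.56e-04), ATRX (1 of 4, adjusted p = 3.6e-05), SMN1 (1 of 4) and SMN2 (1 of 4). None of the 5 of CHEK1, 3 of HIPK3 and 2 of MAPT changed. In the changed SMN1 and SMN2 clusters, no intron inside the gene passed (lowest intron adjusted p = 0.197 and 0.536). Both clusters also hold introns that were not placed in either gene. Of all genes with a tested cluster, 14% had a changed one, and 19% of those with 3 to 7 tested clusters. Because SMN1 and SMN2 are near-identical, their clusters are not separate cases. In NASP the lowest intron adjusted p was 2.76e-05, for the intron from 45600458 to 45602254. It took 1.62% ± 0.22 of the cluster in aggregate cells and 2.67% ± 0.21 in diffuse cells (SD, n = 3 each). The annotated introns next to the NASP exon between 45607320 and 45608338, and the intron that skips only this exon, did not pass (lowest intron adjusted p = 0.784). A longer annotated intron (45591271 to 45613168), which skips this exon together with others, passed (intron adjusted p = 2.35e-04). Its share of the cluster was 0.0678% ± 0.026 in aggregate cells and 0.315% ± 0.1 in diffuse cells. Introns from unannotated donors inside the exon did not pass (intron adjusted p = 0.0579 and 0.0844). In ATRX an intron that is not annotated (77616731 to 77620394) and skips 1 exon took 1.13% ± 0.43 of its cluster in aggregate cells and 4.61% ± 1.02 in diffuse cells (SD, n = 3 each, intron adjusted p = 3.49e-05). TRA2 dependence of the exons in these clusters was not tested.

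The genes with the most similar pattern over the 6 libraries were computed for each of the 8 genes and are given here for CLK4 and SRPK1, which had the largest fall and rise; others had closer matches, such as SRPK2 with FUT8 (0.00902). Likeness was the root mean square difference of centred log2 CPM, over 11598 genes. TXNIP (0.0544, log2 fold change -1.18) and C19orf57 (0.0574, -1.11) were nearest to CLK4. ALCAM (0.0106, log2 fold change 0.36) and MFAP1 (0.0125, 0.36) were nearest to SRPK1.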

How the data were processed

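The deposited tables hold counts per gene and, from LeafCutter, spliced-read counts of each intron, neither of them normalized, per the file headers. The submitters' processing notes name fastp 0.23.2, STAR 2.7.11a and hg38. Which program counted genes, with what strand setting and annotation, and which LeafCutter release was run are not given in the sources used. From the counts, genes were tested with edgeR 4.0.16 (R 4.3.3; filterByExpr, TMM, robust quasi-likelihood, Benjamini-Hochberg, threshold 0.05); DESeq2 1.42.0 was an alternative. The common biological coefficient of variation was 3.08%. For diffSpliceDGE an intron needed 10 counts in all, and its cluster 10 counts per library. Intron positions are the first and last intron base, from 1, matched to GENCODE 29 (hg38). Lengths are those of APPRIS principal transcripts. The series design describes the 3 replicates per group as independent, and the samples' batch label is the same for all 6. The members and gene lists were chosen with earlier results of these data known, so none is independent support. Members and TARDBP were all named; per list, up to 3 changed genes per direction with at least 5 CPM were named, and per member up to 3 changed introns and the known alternative exons. Some genes outside this rule (SRSF6, SRSF12, FUT8, U2AF1, SMN2, NASP, MAPT) were named after their values were seen. So were the level values of introns, the NASP introns, the SRPK2 93-base exon and both further CLK4 exons. The fits were tested on simulated data. A marker of the blood list is not reported here.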

Additional observations from a re-analysis of the deposited data

How the results depend on the processing

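Of the 8 genes, 7 changed in gene counts; this count was 5 against a fold of 1.2, 6 with upper-quartile scaling and DESeq2, and 6 to 7 when 1 library was left out. No log2 fold change of a member or TARDBP turned its direction under the 14 settings tried. The number of members with a changed intron cluster (5) was 4 with at least 30 counts per intron and 2 to 4 when 1 library was left out. TRA2A and TRA2B were called under every setting tried. Over all clusters 1802 changed, with 2721 in the F test per cluster and 1171 to 1318 when 1 library was left out, where fewer samples and clusters were tested. The paralog differences kept their direction, and with 1 library left out the smallest exact p is 0.2. Replicate numbers in the labels did not pair the samples by the rule used, since same-numbered libraries deviated together with correlations of only 0.036, 0.083 and 0.06. Each library nevertheless correlated best with its own number. With a replicate block, 7 members and 13530 genes changed in counts, against 13455 without it. Under the block 4 members had a changed cluster, 1494 clusters changed, and the SRPK2 cluster was not called (adjusted p = 0.0667). The paralog log2 differences under the block were 0.39, 0.43, 0.36 and 0.99 for TRA2A/TRA2B, CLK1/CLK4, CLK2/CLK3 and SRPK1/SRPK2, with an exact p of 0.25. Depth limits the CLK1 and CLK4 exon results (33 to 229 counts per cluster and library). LeafCutter lists only introns with an alternative, so other introns of these genes are not analysed here.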
